A study of Homo sapiens with 21 samples.

Results

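The genes described here are 10 members of the NF-kB system, chosen by name: the Rel-family subunits RELA, REL, RELB, NFKB1 and NFKB2, the inhibitors NFKBIA, NFKBIB and NFKBIE, and the ubiquitin regulators TNFAIP3 and BIRC3. All 10 were found among the 23368 genes listed, and all 10 were among the 19694 genes tested, which are those not at 0 in every library. RNA was sequenced from hTERT-HPNE, a single immortalized nontransformed human pancreatic line that carries a telomerase transgene and was grown with FBS, EGF and puromycin in every group. The 7 groups, of 3 biological replicates each, were untreated cells taken at 0 h and cells taken 4, 8 or 24 h after 400 ng/ml neocarzinostatin (NCS), a radiomimetic drug that breaks both DNA strands, or after 300 μM hydrogen peroxide (H2O2), an oxidant. Treated cells received fresh medium along with the drug and untreated cells were taken only at 0 h, so in any comparison with untreated cells the treatment, the fresh medium and the hours in culture cannot be told apart. The values are rLog values on a log2 scale, in which differences are shrunken, most of all those of genes with few reads. With no counts in the deposited table, library depth is unknown. In bulk RNA, fewer cells that express a gene and less RNA per cell cannot be told apart.

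NF-kB factors are dimers of Rel-family proteins that IkB proteins hold in the cytoplasm of resting cells. The IkB kinase complex, switched on by cytokine and Toll-like receptors or, after double-strand breaks, by a nuclear route through ATM and NEMO, marks IkB for degradation, and the freed dimers bind kB sites in the genome. Among their best known targets are genes of their own inhibitors, such as NFKBIA, NFKBIE and TNFAIP3, which makes the pathway a negative feedback loop. In the noncanonical arm the kinase NIK (gene MAP3K14) leads to the processing of the NFKB2 precursor p100 into p52, the usual partner of RelB, and TRAF2, TRAF3 and the cIAP proteins of BIRC2 and BIRC3 keep NIK low in resting cells. RNA levels do not show IkB degradation, precursor processing or nuclear entry, none of which was measured in these libraries.

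Promoter windows were available in RefSeq (GRCh38.p14) for 8 of the 10 members, each reaching from 250 bases before to 50 bases after an annotated start. RELB and NFKBIE were not matched. The kB consensus, searched by name on both strands, was found in at least 1 window of 7 of these 8 members, all but RELA, and in 8.96% of the 12579 tested genes that have a window. Over all 35116 windows the share was 5.91%. The AP-1 motif TGANTCA, also read on both strands, was found in 1 of the 8 members, NFKBIB, and in 7.95% of the tested genes. A match is a description of letters and does not show that a factor binds there. The stretches below are shown because they carry matches of members whose RNA is described next. The kB match is in capitals, 5′ to 3′ on the strand of the gene, with overlapping matches joined.
BIRC3, chr11:102317234-102317449, plus strand: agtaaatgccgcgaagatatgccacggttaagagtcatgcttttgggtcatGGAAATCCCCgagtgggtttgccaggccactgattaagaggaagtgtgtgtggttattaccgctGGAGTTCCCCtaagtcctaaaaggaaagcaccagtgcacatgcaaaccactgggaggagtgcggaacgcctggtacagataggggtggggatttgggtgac
NFKBIA, chr14:35404750-35404999, minus strand: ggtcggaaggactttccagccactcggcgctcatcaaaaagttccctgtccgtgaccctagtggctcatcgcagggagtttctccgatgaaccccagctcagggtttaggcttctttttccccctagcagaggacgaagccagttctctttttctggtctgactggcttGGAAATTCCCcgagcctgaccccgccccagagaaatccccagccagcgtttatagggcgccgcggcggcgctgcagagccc
TNFAIP3, chr6:137867188-137867217, plus strand: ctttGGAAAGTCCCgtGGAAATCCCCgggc
NFKB1, chr4:102501301-102501328, plus strand: gacgtcagtGGGAATTTCCagccaggaa
NFKB2 (upstream match), chr10:102394462-102394490, plus strand: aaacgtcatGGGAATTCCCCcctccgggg
NFKB2 (downstream match), chr10:102394491-102394518, plus strand: ggccgagaaGGGGCTTTCCcggccctga
REL, chr2:60881518-60881546, plus strand: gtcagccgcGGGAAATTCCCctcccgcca
NFKBIB, chr19:38899932-38899960, plus strand: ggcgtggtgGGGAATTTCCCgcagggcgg

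The stretches of BIRC3 and NFKBIA were cut to end before any exon that GENCODE v29 annotates for these genes. That of NFKB1 held no base of an annotated exon of its gene. Those of TNFAIP3 and NFKB2 lay within annotated exons of their genes, and those of REL and NFKBIB lay partly in them. Matches began 199 and 135 bases before the start in BIRC3, 67 and 55 bases before it in TNFAIP3, and 81 bases before it in NFKBIA. NFKB2 has 3 annotated starts, and the windows of the second and the third held 2 separate matches each. The upstream and downstream matches shown for NFKB2 are those of the second window. The matches of the third window lie further downstream and are not shown. RELA had no match in either of its 2 windows, which says only that these letters are not in those windows.

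**Figure D1:**
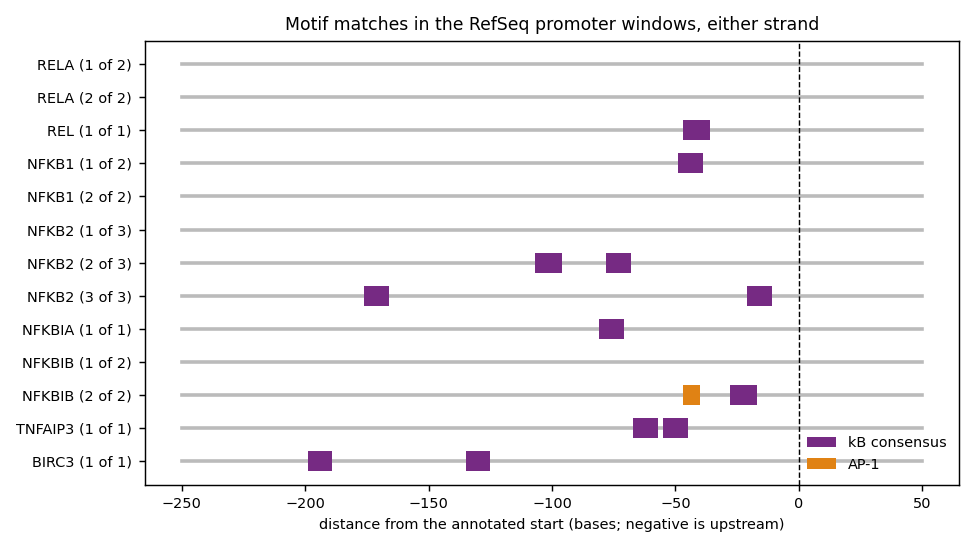
Each grey line is a RefSeq promoter window of 300 bases, placed by distance in bases from the annotated start (dashed), with kB consensus matches in purple and the single AP-1 match in orange. Matches of 7 members lie upstream of the start, and both RELA windows are empty.

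The labelled cell type was checked on its markers. NES (12.0), VIM (17.0), COL1A1 (17.8) and TERT (14.0) had high mean rLog values, while KRT19, a keratin of duct cells, was at 0.60 and the epithelial surface marker EPCAM at -1.76. Other epithelial genes were higher, with E-cadherin (CDH1) at 3.79, MUC1 at 6.09, the duct keratin KRT7 at 6.93 and KRT18 at 11.6. PRSS1, CELA3A and PTF1A of acinar cells, INS of beta cells and CD3E of T cells were listed at 0 in every library. The leukocyte marker PTPRC was at 0.93. The other immune markers checked did not all go this way, with LYZ at 0.09, CD79A at 2.44, CD14 at 2.58 and CD68 at 10.1. Mesenchymal markers were thus high, and duct and epithelial markers were spread from the bottom of the scale to above its median. Both treatments raised CDKN1A, the p53-dependent cell cycle inhibitor, at every time, by 1.21 to 1.62 on the log2 scale (limma). HMOX1, the oxidative stress enzyme, was 3.44 higher at 4 h after H2O2 and 0.88 higher at 4 h after NCS. Library medians lay between 7.14 and 7.19, and no pair of libraries held identical values.

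Most of the members were higher early after NCS and had come down by 24 h. At 4 h after NCS, 7 of 10 members exceeded their untreated level and 0 were lower, at an adjusted p below 0.05 (limma, adjusted over all genes tested), while 17.2% of all genes changed, 7.47% of them upward and 9.72% downward. RELB (log2 difference 1.10), BIRC3 (0.76) and NFKBIE (0.71) had the largest differences, followed by TNFAIP3 (0.51), NFKB2 (0.48), NFKBIA (0.38) and NFKB1 (0.11). The median difference over the 10 members was 0.43, and over all genes tested it was 0.00. Of the members 3 were more than 0.58 higher, a limit that 0.457% of all genes passed upward. NCS at 4 h had the highest mean of the 7 groups in 8 of 10 members. The exceptions were RELA, highest at 8 h after H2O2, and NFKBIB, highest at 4 h after H2O2. The share of all genes that were highest at 4 h after NCS was not computed, so this count is a description only. For some of the 8 the libraries overlapped those of the next group. These were REL and NFKB1, next to untreated cells (gaps 0.01 and 0.11), and TNFAIP3, next to 8 h after H2O2 (0.01). The comparisons with untreated cells all use the same 3 control libraries.

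After H2O2 a larger share of all genes changed at each time, and the member medians were smaller at 4 and 8 h. At 4 h, 6 members were higher and 2 lower, against 26.2% and 19.7% of all genes, or 45.9% in all. The median of the members was 0.15, and 1 member, RELB, was more than 0.58 higher, as were 2.25% of all genes. At 8 h the numbers were 4 higher and 1 lower, with 37.4% of all genes changed (18.8% upward, 18.6% downward) and a member median of 0.10. At 24 h 2 members were higher and 2 lower, with 40.0% of all genes changed (20.2% upward, 19.9% downward) and a member median of -0.03, so the 4 of 10 equal the share over all genes. In the later NCS groups 5 members were higher and 1 lower at 8 h, where 23.9% of all genes changed (10.5% upward, 13.3% downward). By 24 h after NCS 2 were higher and 4 lower, where 38.0% of all genes changed (19.6% upward, 18.4% downward).

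**Figure D2:**
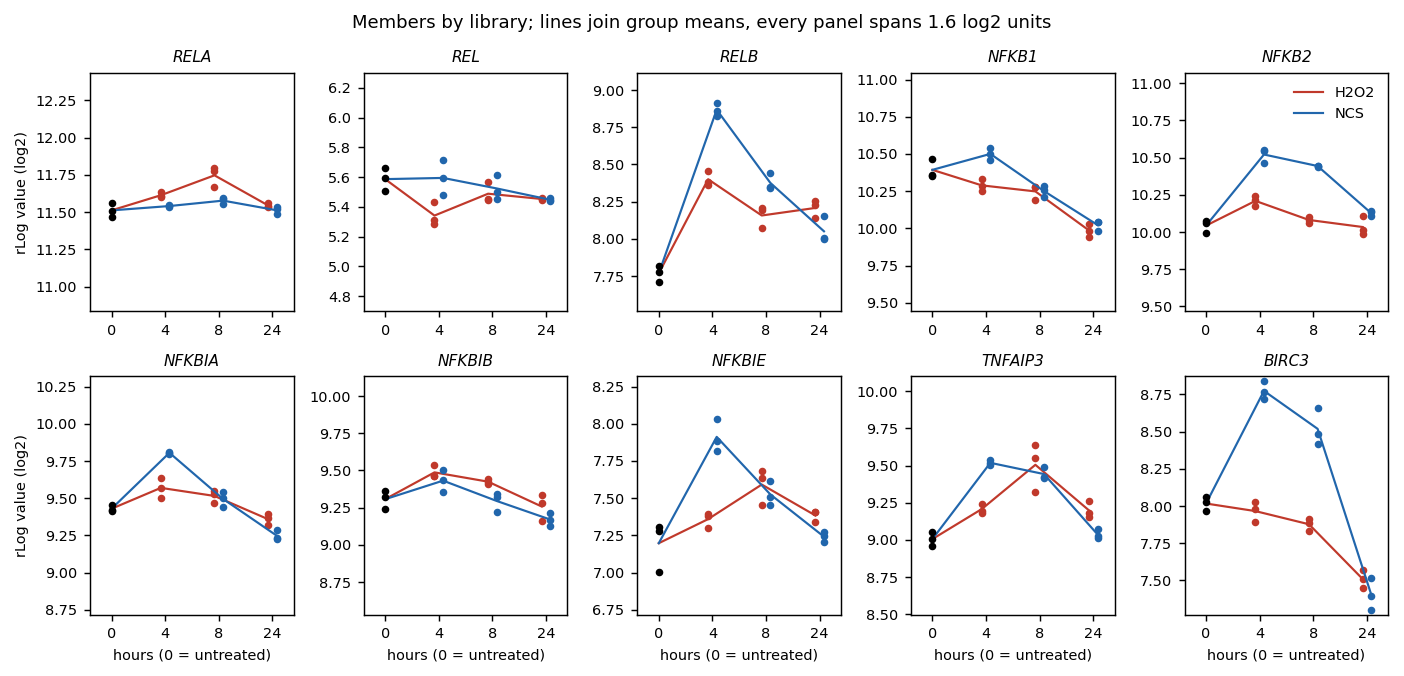
The rLog value (log2) of each member is plotted in every library against hours after treatment, with untreated cells in black at 0, H2O2 in red and NCS in blue; time points are evenly spaced, lines join group means, and every panel spans 1.6 log2 units so that slopes can be compared between genes. RELB, NFKBIE and BIRC3 show an NCS peak at 4 h, and RELA and REL have the narrowest ranges of group means among the members.

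**Figure D3:**
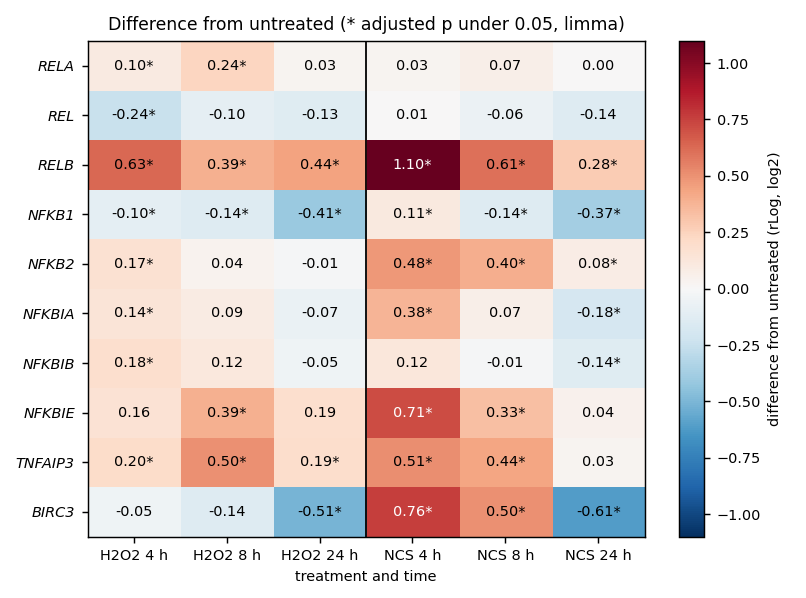
Each cell gives the log2 difference of rLog means between a treated group and untreated cells, coloured from blue (lower) to red (higher), with an asterisk at an adjusted p below 0.05 (limma). The NCS 4 h column runs from 0.01 for REL to 1.10 for RELB, and BIRC3 and NFKB1 are lower than in untreated cells in both 24 h columns.

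RELA encodes p65, the main activating subunit of the canonical dimer, and its RNA was nearly level. It was at 11.47, 11.51 and 11.56 in the untreated libraries, at 11.55, 11.54 and 11.53 at 4 h after NCS, and at 11.80, 11.67 and 11.78 at 8 h after H2O2. The H2O2 libraries at 8 h lay above every untreated library, and those at 4 h after NCS lay within their range. The difference at 8 h after H2O2 was 0.24 (SE 0.03, adjusted p = 2.5e-06, limma), and that at 4 h was 0.10 (adjusted p = 0.00682). None of the other 4 treated groups passed the test for RELA, with differences of 0.00 to 0.07, although that at 8 h after NCS passed without untreated replicate 3 (0.09, adjusted p = 0.0397, limma).

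REL encodes c-Rel, a subunit best known from lymphocytes. Its group means spanned 0.25, a wider range than that of 52.1% of all genes tested. It was at 5.51, 5.66 and 5.59 in untreated cells and at 5.28, 5.31 and 5.43 at 4 h after H2O2. The ranges did not overlap, and REL was lower by 0.24 there (difference -0.24, SE 0.06, adjusted p = 0.00307, limma). At 4 h after NCS it was at 5.71, 5.59 and 5.48, which overlaps the untreated libraries. REL did not pass the test in the other 5 comparisons with untreated cells, where its differences ran from -0.14 to 0.01. Its difference of -0.14 at 24 h after NCS became -0.18 and passed without untreated replicate 1 (adjusted p = 0.049, limma). It also passed after quantile normalization (-0.16, adjusted p = 0.0452, limma). The REL difference of -0.13 at 24 h after H2O2 passed with library medians aligned (-0.15, adjusted p = 0.0328, limma) and after quantile normalization (-0.17, adjusted p = 0.0363).

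RELB, the activating partner of p52, changed more than any other subunit here. It was at 7.82, 7.78 and 7.71 in untreated cells, at 8.92, 8.83 and 8.86 at 4 h after NCS, at 8.44, 8.34 and 8.35 at 8 h, reaching 8.00, 8.15 and 8.01 by 24 h. The H2O2 libraries were at 8.46, 8.38 and 8.36 at 4 h, at 8.21, 8.07 and 8.19 at 8 h, reaching 8.26, 8.23 and 8.14 by 24 h. Each of the 18 treated libraries lay above the untreated ones, and the NCS libraries at 4 h lay above all others. The differences from untreated cells after NCS were 1.10 at 4 h (SE 0.05, adjusted p = 3.22e-11, limma), 0.61 at 8 h (adjusted p = 3.9e-08), then 0.28 at 24 h (adjusted p = 0.000148), and the first of these is 2.14-fold on the shrunken rLog scale. After H2O2 they were 0.63 (adjusted p = 9.92e-09), 0.39 (adjusted p = 5.39e-06) and 0.44 (adjusted p = 7.82e-07, limma). RELB was the only member that passed the test as higher than in untreated cells in all 6 treated groups. The group means of RELA, NFKBIE and TNFAIP3 were also lowest in untreated cells, but not all of their differences passed. RELB fell by 0.49 between 4 and 8 h and by 0.33 between 8 and 24 h after NCS. After H2O2 it fell by 0.24 between 4 and 8 h and differed by 0.05 between 8 and 24 h, which did not pass the test. Over the 7 groups its means spanned 1.10, a wider range than that of 97.7% of all genes tested.

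NFKB1 and NFKB2, which encode the precursors p105 and p100 of the DNA-binding subunits p50 and p52, went different ways. NFKB2 was at 10.00, 10.07 and 10.06 in untreated cells, at 10.55, 10.55 and 10.47 at 4 h after NCS, and at 10.44, 10.45 and 10.45 at 8 h. It was higher by 0.48 at 4 h (SE 0.03, adjusted p = 3.7e-09, limma) and by 0.40 at 8 h (adjusted p = 1.81e-08), with no overlap of libraries. At 24 h after NCS its difference was 0.08 (adjusted p = 0.042, limma), a call lost in 7 of 12 alternatives, among them 5 of the 6 that leave out 1 library. After H2O2 it was 0.17 higher at 4 h (adjusted p = 0.000245) and within 0.04 of untreated cells at 8 and 24 h. NFKB1 was at 10.47, 10.36 and 10.35 in untreated cells, at 9.94, 9.98 and 10.03 at 24 h after H2O2, and at 10.04, 10.04 and 9.98 at 24 h after NCS. Both 24 h groups lay below every untreated library, with differences of -0.41 after H2O2 (SE 0.04, adjusted p = 2.35e-08, limma) and -0.37 after NCS (adjusted p = 9.57e-08). NFKB1 was also lower at 8 h, by 0.14 after either treatment, and both of these calls were lost when only the 2 groups compared were fitted (adjusted p = 0.0507 and 0.0509, limma). Its rise at 4 h after NCS (0.11, adjusted p = 0.0472, limma) came with overlapping libraries and was lost in 8 of 12 alternatives, with adjusted p between 0.0523 and 0.194. Its fall at 4 h after H2O2 (-0.10, adjusted p = 0.0236) was lost in 5 of 12. Both losses included fits without a single library, namely untreated replicate 2 or 3 or NCS 4 h replicate 1 or 2 for the rise, and untreated replicate 1 or H2O2 4 h replicate 2 or 3 for the fall.

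The IkB genes NFKBIA, NFKBIE and NFKBIB, whose proteins retain NF-kB in the cytoplasm, differed in how far they moved. NFKBIA, the IkB-alpha gene, was at 9.42, 9.41 and 9.46 in untreated cells, at 9.81, 9.80 and 9.81 at 4 h after NCS, and at 9.24, 9.22 and 9.29 at 24 h after NCS. It therefore stood above the untreated range at 4 h and below it at 24 h, with differences of 0.38 (SE 0.03, adjusted p = 2.84e-07, limma) and -0.18 (adjusted p = 0.000289). At 8 h after NCS its difference was 0.07 (adjusted p = 0.205, limma). After H2O2 it was at 9.50, 9.57 and 9.64 at 4 h, a rise of 0.14 (adjusted p = 0.00255, limma). Its differences of 0.09 at 8 h and -0.07 at 24 h after H2O2 did not pass. The former passed without H2O2 8 h replicate 2 (0.11, adjusted p = 0.0251, limma) and after quantile normalization (0.10, adjusted p = 0.0278).

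NFKBIE, the IkB-epsilon gene, was at 7.0, 7.28 and 7.31 in untreated cells. It was at 8.03, 7.89 and 7.82 at 4 h after NCS, at 7.51, 7.61 and 7.45 at 8 h, reaching 7.24, 7.21 and 7.27 by 24 h. The libraries at 4 and 8 h lay above the untreated ones, and those at 24 h lay among them. Its rise was 0.71 at 4 h (SE 0.07, adjusted p = 1.54e-06, limma) and 0.33 at 8 h (adjusted p = 0.003, or 0.057 in a fit of only these 2 groups), and at 24 h its difference was 0.04 (adjusted p = 0.767). After H2O2 the largest difference came at 8 h, where the libraries were at 7.64, 7.46 and 7.68 and the difference was 0.39 (adjusted p = 0.000338, limma). At 4 h after H2O2 it was 0.16 (adjusted p = 0.0899), which became 0.22 (adjusted p = 0.0391) without untreated replicate 3, and at 24 h it was 0.19 (adjusted p = 0.0577), which became 0.24 (adjusted p = 0.0249) without that library and 0.23 (adjusted p = 0.0412, limma) without untreated replicate 2. The untreated spread of NFKBIE (SD 0.17) was the widest of any member in any group, since replicate 1 stood below the other two.

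NFKBIB, the IkB-beta gene, had group means that spanned 0.32, a wider range than that of 62.4% of all genes tested. It was at 9.24, 9.32 and 9.36 in untreated cells and at 9.53, 9.46 and 9.46 at 4 h after H2O2, which do not overlap, and the difference of 0.18 passed the test (adjusted p = 0.00392, limma). At 24 h after NCS it was lower by 0.14 (difference -0.14, adjusted p = 0.0263), a call lost in 5 of 12 alternatives, 4 of them without a single library (untreated replicate 2 or 3, or NCS 24 h replicate 1 or 3). Its differences of 0.12 at 8 h after H2O2 and at 4 h after NCS did not pass, but the former passed without untreated replicate 3 (0.15, adjusted p = 0.0381, limma) and the latter without NCS 4 h replicate 2 (0.16, adjusted p = 0.0393). GENCODE v29 places 40 exonic bases of NFKBIB on the opposite strand of exons of SIRT2, which is also in the table. The strand setting of the counting is not given in the sources used here, so reads from this overlap may belong to either gene. Other members overlap genes that are not in the table. REL shares 5702 exonic bases with AC010733.2 on the same strand. TNFAIP3 shares 95 and RELA 9 with genes on the opposite strand. Reads from these bases may likewise come from either gene.

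TNFAIP3 encodes A20, a ubiquitin-editing enzyme that damps signalling upstream of the IkB kinase. It was at 9.00, 8.96 and 9.06 in untreated cells, at 9.51, 9.53 and 9.51 at 4 h after NCS, and at 9.49, 9.42 and 9.43 at 8 h. After H2O2 it was at 9.19, 9.24 and 9.18 at 4 h, at 9.64, 9.32 and 9.55 at 8 h, reaching 9.26, 9.15 and 9.18 by 24 h. All of these lay above the untreated libraries. The highest mean after NCS was at 4 h (9.52) and the highest after H2O2 at 8 h (9.50). At 8 h the NCS mean was still 9.44, and the libraries of the 2 treatments overlapped (difference 0.06, adjusted p = 0.451, limma). The rise was 0.51 at 4 h after NCS (SE 0.06, adjusted p = 1.95e-06, limma) and 0.50 at 8 h after H2O2 (adjusted p = 8.27e-07). At 24 h TNFAIP3 was 0.19 higher after H2O2 (adjusted p = 0.00831, limma), and after NCS its difference was 0.03 (adjusted p = 0.782). Replicate 2 at 8 h after H2O2 stood below the other 2.

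BIRC3 encodes cIAP2, a ubiquitin ligase of TNF receptor complexes, and spanned the widest range of the 10, at 1.37 between group means, wider than that of 98.8% of all genes tested. It was at 8.03, 8.06 and 7.97 in untreated cells. After NCS it was at 8.84, 8.72 and 8.76 at 4 h, at 8.66, 8.48 and 8.42 at 8 h, reaching 7.51, 7.40 and 7.30 by 24 h. The first 6 of these libraries lay above the untreated ones and the last 3 below them, with differences of 0.76 (SE 0.06, adjusted p = 5.53e-08, limma), 0.50 (adjusted p = 4.46e-06) and -0.61 (adjusted p = 1.31e-07). The step from 8 to 24 h after NCS, a fall of 1.11 on the log2 scale (adjusted p = 1.18e-10, limma), was the largest between consecutive times of any member. BIRC3 was not higher than in untreated cells at any time after H2O2. Its libraries were at 8.03, 7.89 and 7.98 at 4 h, at 7.88, 7.91 and 7.83 at 8 h, reaching 7.51, 7.57 and 7.45 by 24 h. The differences were -0.05 (adjusted p = 0.54), -0.14 (adjusted p = 0.0827) and -0.51 (adjusted p = 1.37e-06, limma). The 8 h libraries lay below the untreated ones without overlap, and that difference passed the test in 2 of 12 alternatives, with the replicate number as a block (adjusted p = 0.0357, limma) and over genes with a mean of at least 5 (adjusted p = 0.0476).

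The comparison of H2O2 with NCS at the same time has fresh medium and time in common. At 4 h, 8 of 10 members were lower after H2O2 and 1 was higher, against 18.0% and 26.3% of all genes (44.4% in all), and the member median was -0.28. BIRC3 differed most, by -0.81 (95% interval -0.94 to -0.68, adjusted p = 4.65e-09, limma), which is 1.75-fold on the rLog scale. NFKBIE differed by -0.55 (95% interval -0.71 to -0.39, adjusted p = 8.22e-06), RELB by -0.47 (95% interval -0.57 to -0.36, adjusted p = 4.8e-07), and NFKB2 and TNFAIP3 by -0.31 each. REL, NFKBIA and NFKB1 differed by -0.25, -0.24 and -0.21. In these 8 genes every H2O2 library lay below every NCS library; over all genes tested, the libraries did not overlap in either direction in 50.1%. RELA was the member that was higher after H2O2, by 0.07 (adjusted p = 0.0471, limma), a call lost in 8 of 12 alternatives, including each of the 6 fits without 1 library. NFKBIB did not pass (0.06, 95% interval -0.04 to 0.15).

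By 8 h the members had parted. NFKB2 (-0.36, adjusted p = 8.35e-08, limma), BIRC3 (-0.64, adjusted p = 2.41e-07) and RELB (-0.22, adjusted p = 0.0021) were still lower after H2O2, and RELA was higher by 0.17 (adjusted p = 0.000122). With NFKBIB these are 5 of 10 members, 2 higher and 3 lower, where 34.1% of all genes differed (18.7% higher, 15.4% lower). The NFKBIB difference of 0.13 (adjusted p = 0.0394) was lost in 7 of 12 alternatives, including 5 of the 6 without 1 library. REL, NFKB1, NFKBIA, NFKBIE and TNFAIP3 did not pass, with intervals that all included 0, the widest being that of NFKBIE (-0.09 to 0.22). Without H2O2 8 h replicate 2 TNFAIP3 was higher after H2O2 by 0.15 (adjusted p = 0.00381, limma), against 0.06 with it.

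At 24 h the differences were small. RELB (0.16), TNFAIP3 (0.16) and NFKBIA (0.11) were higher and NFKB2 (-0.09) was lower after H2O2, with adjusted p between 0.027 and 0.0427 (limma), where 21.9% of all genes differed (11.0% higher, 10.9% lower). These calls did not hold when a library was left out: without H2O2 24 h replicate 1 or NCS 24 h replicate 1 no member passed, without H2O2 24 h replicate 2 or NCS 24 h replicate 2 or 3 only 1 did, and without H2O2 24 h replicate 3 there were 3. BIRC3 differed by 0.10 (95% interval -0.02 to 0.23).

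**Figure D4:**
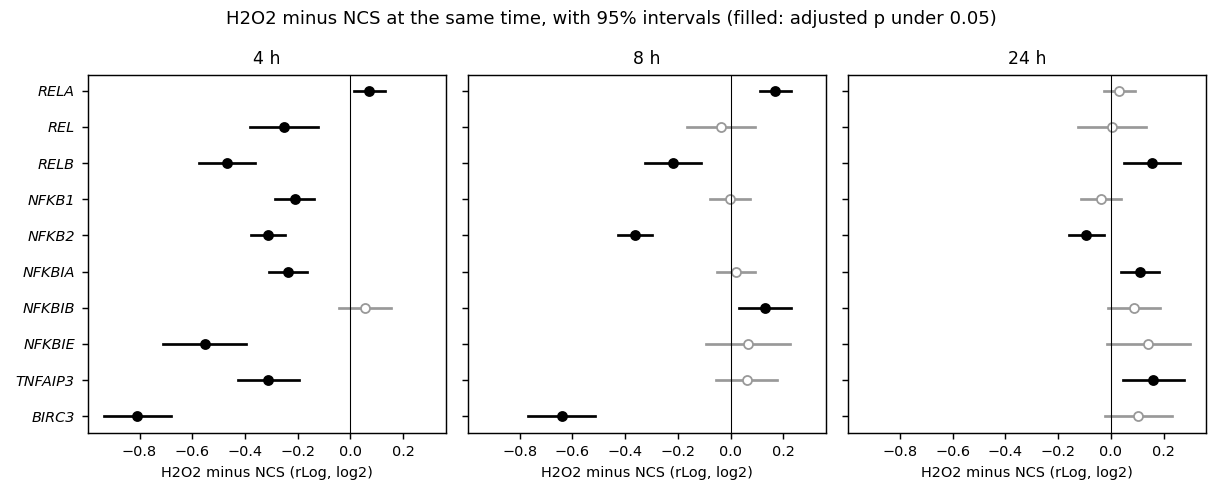
Points give the H2O2 minus NCS difference of rLog means (log2) for each member at 4, 8 and 24 h, bars are 95% intervals from the limma fit, and filled points have an adjusted p below 0.05. At 4 h 8 members lie left of 0, and at 24 h every point lies between -0.09 and 0.16.

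The change of this difference from 4 to 24 h was tested directly as an interaction. It was positive and passed the test in 8 of 10 members, and 39.4% of all genes changed in it, 16.6% upward and 22.7% downward. BIRC3 (0.91, adjusted p = 1.82e-07), NFKBIE (0.70, adjusted p = 4.45e-05) and RELB (0.62, adjusted p = 1.72e-06, limma) had the largest values. RELA (-0.04) and NFKBIB (0.03) did not pass.

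Steps between consecutive times were tested within each treatment. From 4 to 8 h after NCS 5 members fell (RELB, NFKBIE, NFKBIA, BIRC3 and NFKB1) and 0 rose, where 13.7% of all genes changed (6.16% upward, 7.5% downward). The fall of BIRC3 in this step (-0.25) was lost without NCS 8 h replicate 3 (-0.21) and in a fit of only these groups, with adjusted p of 0.0506 and 0.0515 (limma) in these fits. From 8 to 24 h after NCS 7 fell and 0 rose, where 29.9% of all genes changed (14.9% upward, 15.0% downward), and TNFAIP3 (-0.41) and NFKB2 (-0.32) had their largest fall there. RELA, REL and NFKBIB were the 3 that did not pass. From 4 to 8 h after H2O2 3 members rose, TNFAIP3 by 0.30, NFKBIE by 0.23 and RELA by 0.13, and RELB and NFKB2 fell, by 0.24 and 0.13 on the log2 scale, where 45.7% of all genes changed (18.0% upward, 27.7% downward). The NFKBIE step lost its call (adjusted p 0.0617 to 0.0802, limma) without H2O2 4 h replicate 1 or without H2O2 8 h replicate 1 or 3. From 8 to 24 h after H2O2 7 members fell and 0 rose, where 42.6% of all genes changed (19.4% upward, 23.2% downward), and BIRC3 fell most, by 0.37 on the log2 scale. The fall of NFKBIE in that step (-0.21) was lost in 6 of 12 alternatives, 5 of them without a single library, and that of NFKBIB (-0.17) without H2O2 24 h replicate 3 (-0.12, adjusted p = 0.0555, limma). REL did not pass in any step, but its rise of 0.15 from 4 to 8 h after H2O2 (adjusted p = 0.0599, limma) passed in 4 of 12 alternatives, among them quantile normalization (0.28, adjusted p = 0.0012) and the fit without H2O2 4 h replicate 3 (0.19, adjusted p = 0.0277). In the same way NFKBIB passed from 4 to 8 h after NCS without NCS 4 h replicate 2 (-0.17, adjusted p = 0.033, limma) and from 8 to 24 h after NCS without NCS 8 h replicate 3 (-0.16) or NCS 24 h replicate 2 (-0.15). NFKB2 passed from 4 to 8 h after NCS without NCS 4 h replicate 3 (adjusted p = 0.0474, limma) and from 8 to 24 h after H2O2 without H2O2 24 h replicate 2 (adjusted p = 0.0377).

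The genes whose values ran most like those of the 3 widest-ranging members were found over the 21 libraries, among 11671 genes with a mean of at least 5 that are not members. The libraries share their treatments and their normalization, so these correlations are descriptions only. For BIRC3 they were AMDHD2 (Pearson r 0.941), HIVEP3 (0.927) and IL7R (0.923), the interleukin-7 receptor. For NFKBIE they were CSF1 (0.906), the macrophage colony-stimulating factor, ZNF672 (0.869) and SGK223 (0.868), and for RELB they were NCS1 (0.872), which codes for a calcium sensor and shares only its name with the drug, KIAA0284 (0.860) and ZNF79 (0.856). The group means of IL7R were 8.86 in untreated cells, 9.15 at 4 h after NCS, and 8.33 and 8.49 at 24 h after H2O2 and NCS.

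Other genes of the pathway were taken from 4 lists, some of which share genes. Of 15 further IkB and feedback genes, 2 rose and 2 fell at 4 h after NCS, where 7.47% of all genes rose and 9.72% fell. BCL3, a nuclear IkB protein that binds p50 and p52 dimers, rose by 0.46 (adjusted p = 2.4e-05, limma) and TRAF1, an adaptor of TNF receptors, by 0.40 (adjusted p = 2.88e-05), while NFKBIZ, another nuclear IkB, fell (-0.23, adjusted p = 0.000257) with N4BP1 (-0.12). NFKBIZ was lower in the other 2 NCS groups too, by 0.23 and 0.20. Its means after H2O2 were 9.47, 9.55 and 9.35 at 4, 8 and 24 h, against 9.60 in untreated cells. After H2O2 the same list had 3 higher and 6 lower genes at 4 h, 7 higher and 0 lower at 8 h, and 7 higher and 3 lower at 24 h. Of all genes, 26.2%, 18.8% and 20.2% were higher and 19.7%, 18.6% and 19.9% lower at these times. PELI1, an E3 ligase of receptor signalling, was higher at all 3 times, by 0.35, 0.64 and 0.55, and BCL3 by 0.18, 0.32 and 0.44. TRAF1 was lower after H2O2 than after NCS both at 4 h (-0.31, adjusted p = 0.000124) and at 8 h (-0.29), the latter with an adjusted p of 0.000332 (limma).

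Upstream receptors, adaptors and kinases, 34 in all, had 6 higher and 6 lower at 4 h after NCS, with a median of -0.01. At that time 7.47% of all genes rose and 9.72% fell. At 4 h after H2O2, where 26.2% of all genes rose and 19.7% fell, the list had 1 higher and 15 lower (median -0.07). The 1 that was higher there was IRAK2 (0.78, adjusted p = 3.98e-10, limma), a kinase of Toll-like and interleukin-1 receptor signalling, which was also higher at 4 h after NCS (0.44). Of the lower ones, TRAF5 (-0.53) and TLR4 (-0.43) had the largest falls. In the noncanonical arm, TRAF3 rose by 0.26 and MAP3K14, the NIK gene, by 0.21 at 4 h after NCS, and MAP3K14 was lower after H2O2 than after NCS by 0.50 at 4 h (difference -0.50, adjusted p = 2.08e-08) and by 0.22 at 8 h (difference -0.22, adjusted p = 0.000389, limma). TRAF2 fell at 24 h by 0.62 after H2O2 and by 0.60 after NCS.

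Of 10 genes of the genotoxic route to the IkB kinase, 2 rose and 1 fell at 4 h after NCS. Over all genes 7.47% rose and 9.72% fell at that time. PIDD, the p53-induced scaffold of that route, rose by 0.92 at 4 h after NCS (adjusted p = 1.69e-08, limma) and by 0.37 at 4 h after H2O2 (adjusted p = 0.000197), and it was lower after H2O2 than after NCS at 4 h (-0.55, adjusted p = 2.25e-06). At 24 h PARP1, the poly(ADP-ribose) polymerase that senses breaks, was lower in both treatments, with differences of -0.89 after H2O2 and -0.83 after NCS. At 4 h after H2O2 the list had 1 higher and 4 lower, among them PIAS4 (-0.39), a SUMO ligase, and ATM (-0.38). Over all genes 26.2% rose and 19.7% fell there.

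The list of NF-kB target genes held 38, of which CCL2 and VCAM1 were listed at 0 in every library, 36 were tested and 17 had a mean under 5. In NCS-treated cells 12 rose and 1 fell at either 4 or 8 h, and 8 rose and 3 fell at 24 h. Of all genes, 7.47%, 10.5% and 19.6% rose and 9.72%, 13.3% and 18.4% fell at 4, 8 and 24 h. After H2O2 12 rose and 3 fell at 4 h, while 15 rose and 0 fell at 8 h, and 15 rose and 4 fell at 24 h. Here 26.2%, 18.8% and 20.2% of all genes rose and 19.7%, 18.6% and 19.9% fell. The median differences of the 36 ran from 0.02 to 0.07. LIF, an interleukin-6 family cytokine, rose by 1.22 at 4 h after NCS (adjusted p = 2.57e-12, limma) and by 1.88 at 4 h after H2O2 (adjusted p = 1.31e-15), and PTGS2, the inducible prostaglandin synthase, by 0.82 and 1.23. Set against NCS directly, LIF was 0.66 higher after H2O2 than after NCS at 4 h (adjusted p = 1.11e-09). CSF1 rose by 0.80 at 4 h after NCS (adjusted p = 6.45e-10, limma). At that time it was lower after H2O2 than after NCS (difference -0.50, adjusted p = 5.93e-08, limma). Its mean at 4 h after H2O2 was 10.01, above the 9.71 of untreated cells. IL8, the neutrophil chemokine listed under its older name, rose from 4.81 to 5.97 at 4 h after H2O2, still a low value. At 4 h after NCS its mean was 5.46. At 24 h PLAU, the urokinase gene, was 1.16 higher after H2O2 and 0.59 higher after NCS. Between H2O2 and NCS the target list had 9 higher and 8 lower of 36 at 4 h, with a median of 0.02. Over all genes 26.3% were higher and 18.0% lower, and of the 10 members 1 was higher and 8 lower.

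**Figure D5:**
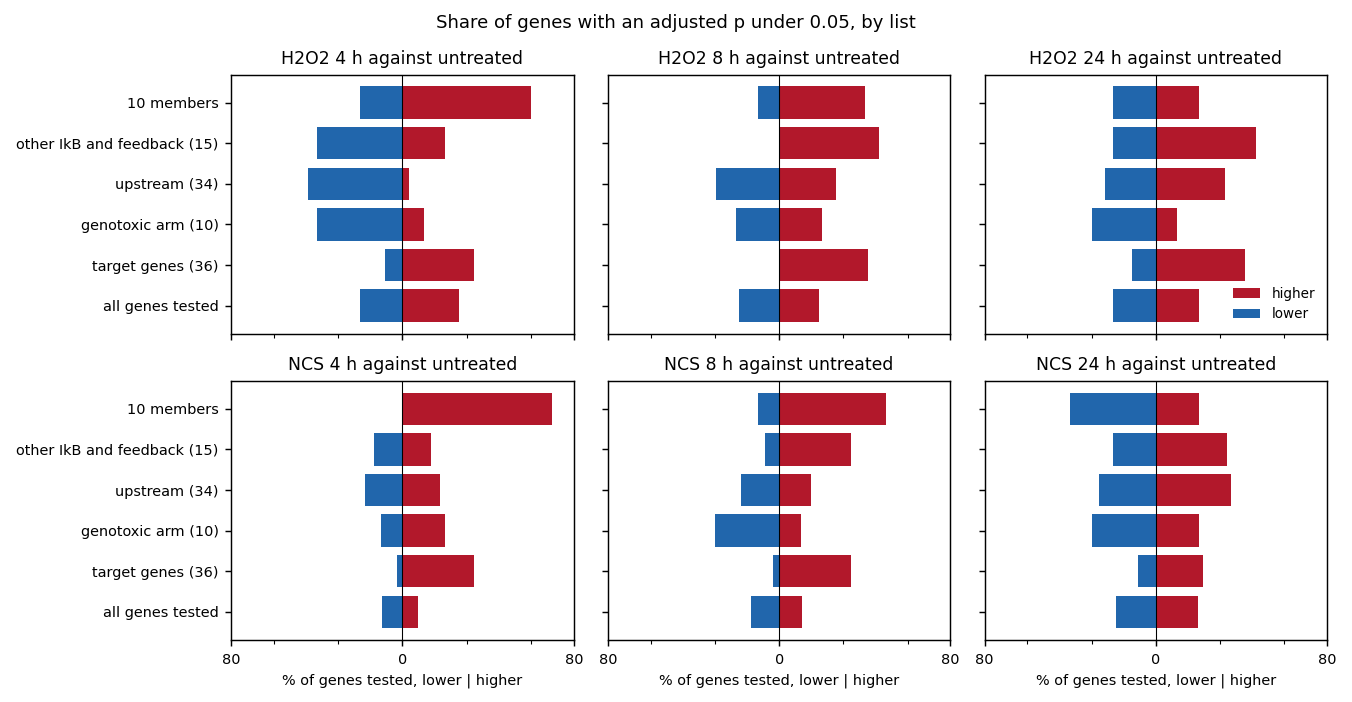
Bars give the percentage of tested genes in each list that passed an adjusted p of 0.05 (limma) against untreated cells, upward in red to the right and downward in blue to the left, with the number of genes tested in parentheses and all genes tested in the bottom row; a panel is a treatment and time. At 4 h after NCS 7 of 10 members are higher beside 7.47% of all genes.

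For any single gene, 3 libraries against 3 allow a two-sided exact permutation p of 0.1 at best, which each comparison without overlap reached, so the calls above rest on the spread that the limma fit shares between genes and groups. The replicates are described as biological, with no word on separate cultures or days, and p-values measure the spread between these libraries.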

How the data were processed

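RNA-seq of hTERT-HPNE cells was taken as deposited. The authors prepared TruSeq Stranded mRNA libraries, aligned reads with HISAT2, counted them with htseq-count in Galaxy and passed the counts through the rLog transformation of DESeq2, over all libraries. The deposited values are on a log2 scale, normalized for library size and shrunken. The submitters' processing notes name hg19; annotation, tool versions and strand setting are not given in the sources used here. Read counts were not analysed here, so depth is unknown.

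Of 23368 genes, 3674 at 0 in every library were left out and 19694 tested. Groups were compared with limma 3.58.1 (R 4.3.3) in one fit of 7 groups, using its mean-variance trend; p-values were adjusted over all genes tested (Benjamini-Hochberg). A gene was counted as changed at an adjusted p under 0.05. The study's limit of 1 on the log2 fold change served as an alternative, since rLog shrinks differences. There were 14 comparisons: 6 against untreated, 3 of H2O2 with NCS, 4 between consecutive times and 1 interaction. The fit was tested on simulated data.

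The members and the gene lists were chosen with earlier results of these data known. All 10 members are given in every comparison, of each list at most the 3 largest rises and 2 largest falls per comparison, and for 3 members the 3 genes most alike. Promoter windows came from RefSeq and were not joined to values by position. Sequences were read with Python 3.11.15, pandas 2.3.3 and numpy 2.4.6, and plots drawn with matplotlib 3.10.9. Alternatives were aligned library medians, quantile normalization, a mean of at least 5, no trend, only the groups compared, the replicate number as a block, log2 limits of 0.58 and 1, and each library left out.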

Additional observations from a re-analysis of the deposited data

Results flagged for a closer look

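Of 10 members, 8 were flagged because they differed between H2O2 and NCS by a different amount at 24 h than at 4 h, by limma's interaction term. The change in the H2O2 minus NCS difference was 0.91 for BIRC3, 0.70 for NFKBIE, 0.62 for RELB, 0.47 for TNFAIP3, 0.35 for NFKBIA, 0.26 for REL, 0.22 for NFKB2 and 0.18 for NFKB1, all on the log2 scale and all upward. Among all genes tested, 16.6% changed upward in the same term. The REL value lost its call in 3 of the fits that leave out 1 library (0.20 to 0.24, adjusted p 0.0513 to 0.0757, limma), those without H2O2 4 h replicate 1 or 2 or NCS 4 h replicate 1. Groups of 3 libraries were not examined for outlying samples.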

How the results depend on the processing

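Of 140 results (10 members in 14 comparisons), 86 passed the test and 103 kept their call under every alternative apart from the log2 limits. Of 1740 alternative values, 1619 kept the call, 84 lost it, 37 gained it and 0 changed direction after a call. A log2 limit of 1 left 1 member at 4 h after NCS against untreated, 1 in the step from 8 to 24 h after NCS, and 0 in each other comparison. A limit of 0.58 left 3 at 4 h after NCS and 3 in the interaction. It left 1 each at 4 h after H2O2, at 8 and 24 h after NCS, and between H2O2 and NCS at 4 and 8 h. The step from 8 to 24 h after NCS also kept 1, and each other comparison 0. Of all genes, 0.457% passed 0.58 upward at 4 h after NCS and 2.25% at 4 h after H2O2. Other shares of all genes under these limits are not given here, so these counts show only which calls remain. The H2O2 against NCS count at 24 h, 4 members, was 1 after quantile normalization and 0 to 3 with a library left out. With the replicate number as a block, 138 of 140 results kept their call; NFKB1 at 4 h after NCS lost it (adjusted p = 0.0538, limma) and BIRC3 at 8 h after H2O2 gained it (adjusted p = 0.0357, limma). The labels do not say that a number marks a shared culture or day, and in 0 of 13 pairs of groups did every same-numbered pair of libraries have a correlation of deviations from group means above 0.1, so the numbers were not used as a pairing. In 4 of the 13 all these correlations were above 0, the mean was 0.0274 for same-numbered libraries and -0.0137 for others, and 12 of 21 libraries were on average most like those of their own number, where 7 would be with numbers that carry nothing, so a shared source by number was not settled. Quantile normalization gave RELA a call at 24 h after H2O2 (0.09, adjusted p = 0.0106, limma) that it lacked otherwise. Depth is unknown, and shrinkage by rLog limits differences of genes with few reads most.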
